A study of Arabidopsis thaliana with 12 samples.

Results

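Glutathione transferases, beta-glucosidases and the enzymes that reduce or oxidize aldehydes were followed across 3 cuticle mutants of Arabidopsis and their wild type. Members were the probe sets that the platform annotation gives to 1 gene whose symbol, with any AT prefix removed, is GSTU, GSTF, BGLU or ALDH and a number, and the probe sets of the aldo/keto reductase genes At2g37760 and At2g37770. This gave 43 of the 22746 probe sets tested: 11 GSTU, 2 GSTF, 20 BGLU and 8 ALDH genes, and the 2 aldo/keto reductases. The annotation gives 1 gene to only 13513 of the probe sets, so genes of these families without such a probe set are not covered. Statements about a family or class below hold for its members here only. The annotation leaves At2g37760 and At2g37770 unnamed, and they were placed through the study's table of upregulated genes, which was made from these same arrays, so their tests are not independent of that choice. The other 41 members were taken by symbol alone, but the families were chosen with earlier results of these data known.

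RNA came from young rosette leaves, 2 mm to 1 cm long, of plants grown on soil for 5.5 weeks under an 8 h day. The mutants were bdg (allele bdg-2, with 7 bp deleted in the first exon of BODYGUARD, an extracellular hydrolase-like protein), fdh (allele fdh-3940 in the labels and fdh-3940S1 in the study's methods, with 2 bp inserted in the first exon of FIDDLEHEAD, an enzyme of very-long-chain fatty acid synthesis) and lcr (allele lcr-3P77, with an insertion of 1169 bp in the 5′ UTR of LACERATA, a fatty acid hydroxylase of the cytochrome P450 family), and the wild type was Columbia-0. Each genotype had 3 biological replicates, each a pool of leaves from 15 plants on 1 array, and each mutant was represented by 1 allele. All values are log2 expression values from ATH1 arrays, on which a difference of 1 is a 2-fold change, and levels are compared only within a probe set.

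Glutathione transferases join the tripeptide glutathione to reactive, electrophilic compounds. The plant-specific tau (GSTU) and phi (GSTF) classes are best known from herbicide detoxification and from their induction by stress. Beta-glucosidases of the BGLU family release glucose from stored conjugates, among them defence compounds, hormones, coumarins and lignin precursors. Aldehyde dehydrogenases (ALDH) oxidize aldehydes to acids, and aldo/keto reductases use NADPH to turn aldehydes and ketones into alcohols, so that both remove the reactive carbonyls that arise when lipids are oxidized.

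The median log2 value of an array was between 4.56 and 4.70. No background level was measured, so a probe set below the lowest of these medians may carry no signal. The leaf gene RCA, encoding Rubisco activase, lay between 13.86 and 14.47 on all 12 arrays, and EXP7, a root hair expansin, between 1.89 and 1.93. The probe sets for the 3′ and 5′ ends of an actin transcript differed by 5.98 on wild type replicate 2, 6.07 on bdg replicate 1 and 6.27 on lcr replicate 1, and by 4.64 to 5.11 on the other arrays. On these 3 arrays together, 22.0% of the 10009 probe sets above the lowest array median everywhere had their lowest value within the genotype, and 15.5% had their highest. On replicate 3 of all 4 genotypes together, 13.5% of the same probe sets had their highest value within the genotype and 9.49% their lowest. These shares were 1.34% and 0.899% on replicate 1, and 0.619% and 1.38% on replicate 2. In whole leaves, fewer cells of a type and less RNA per cell cannot be told apart.

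At2g37770 was the member with the largest change in every mutant, and At2g37760 came next. Both entered by name after the study reported them as upregulated on these arrays, so this rank is not independent of that choice. At2g37770 encodes a chloroplast aldo/keto reductase (ChlAKR) that acts on reactive carbonyls, and At2g37760 encodes its relative AKR4C8. The 2 genes lie next to each other on chromosome 2 with 0 genes between them. Whether RNA of one also binds the probes of the other was not tested.

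At2g37770 measured 7.48, 7.92 and 5.91 in bdg, 7.22, 7.52 and 6.81 in fdh, and 6.61, 7.34 and 6.19 in lcr, against 3.22, 3.22 and 3.25 in wild type. All 9 mutant arrays lay above every array median and the 3 wild-type arrays under it, and in each mutant the lowest array was replicate 3. The change was 3.87 in bdg (14.7-fold, limma adjusted p = 0.027), 3.95 in fdh (15.5-fold, adjusted p = 0.00711) and 3.48 in lcr (11.2-fold, adjusted p = 0.0259), with a standard error of 0.486 in each. The wild-type level lies where a signal was not shown, so the size of the fold holds only for the deposited scale. The wild-type SD of 0.02 at that level enters the shared standard error. These 3 comparisons share their wild-type arrays.

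At2g37760 measured 8.46, 7.07 and 6.10 in bdg, 7.31, 7.31 and 7.36 in fdh, and 7.96, 7.00 and 6.42 in lcr, against 3.33, 4.86 and 4.76 in wild type. No mutant array overlapped the wild-type arrays. The SD was 0.03 in fdh (n = 3), 1.19 in bdg, 0.78 in lcr and 0.86 in wild type, where replicate 1 was the low array. The change was 2.89 in bdg (7.40-fold), 3.01 in fdh (8.05-fold) and 2.81 in lcr (7.00-fold), with a standard error of 0.640 in each, and none passed limma (adjusted p = 0.300, 0.0508 and 0.152 in the same order). It passed in fdh with a filter on low values, which kept probe sets over log2 5 in 3 or more arrays (adjusted p = 0.0134), with the variance fitted as a trend on the level (0.0347), with the actin difference as a covariate (0.00963) and without the 3 arrays of large actin difference (0.0482), 4 of 14 alternatives, and in lcr in 2, with the filter (0.042) and the covariate (0.0349).

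Rank Product, the study's test, which ranks all 9 ratios between mutant and wild-type arrays, called both genes higher in each mutant at a proportion of false positives (pfp) under 0.05. The study had reported both genes as upregulated by this test on these same arrays. These calls repeat that result and are no independent evidence. For At2g37770 the pfp was 0 in bdg, where no permuted value reached it, 5.41e-04 in fdh and 8.33e-04 in lcr. For At2g37760 it was 0.00231 in bdg, 0.00868 in fdh and 0.00778 in lcr. With 1 array left out at a time, Rank Product kept its call for At2g37770 each time, with a pfp of at most 0.0313. Its call for At2g37760 ended without bdg replicate 1 (pfp = 0.0939), without fdh replicate 1 (0.0653), fdh replicate 2 (0.0667) or fdh replicate 3 (0.0663), and without lcr replicate 1 (0.0979) or lcr replicate 2 (0.0566).

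The limma call for At2g37770 held in fdh when any single fdh or wild-type array was left out. Leaving out wild type replicate 1, 2 or 3 ended it in bdg (adjusted p = 0.0916, 0.0736 and 0.0802), as did leaving out bdg replicate 1 (0.0994) or 2 (0.0813), and it held without bdg replicate 3 (0.00537). In lcr it ended in the same way without wild type replicate 1, 2 or 3 (0.0821, 0.0634 and 0.067) and without lcr replicate 1 (0.088) or 2 (0.106), and held without lcr replicate 3 (0.0475). With only the groups compared in the fit, the call ended in bdg (adjusted p = 0.393) and lcr (0.108). It also ended in both without wild type replicate 2 and bdg replicate 1 together (0.227 and 0.0829). Of 14 alternatives, the call held in 6 in bdg, 13 in fdh and 6 in lcr. The change itself lay between 3.17 and 4.47 over all alternatives and mutants. Without the 3 arrays of large actin difference, At2g37770 was still 3.68 higher in bdg (adjusted p = 0.322), 3.95 in fdh (0.0609) and 3.53 in lcr (0.191).

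Between mutants, neither reductase gene differed past limma's threshold. At2g37770 differed by 0.08 between fdh and bdg (95% interval -1.02 to 1.18), by 0.47 between fdh and lcr (-0.63 to 1.57) and by -0.39 between lcr and bdg (-1.49 to 0.71). For At2g37760 the differences were 0.12 (-1.33 to 1.57), 0.20 (-1.25 to 1.65) and -0.08 (-1.53 to 1.37) in the same order. These intervals leave room for differences of more than 2-fold either way.

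**Figure D1:**
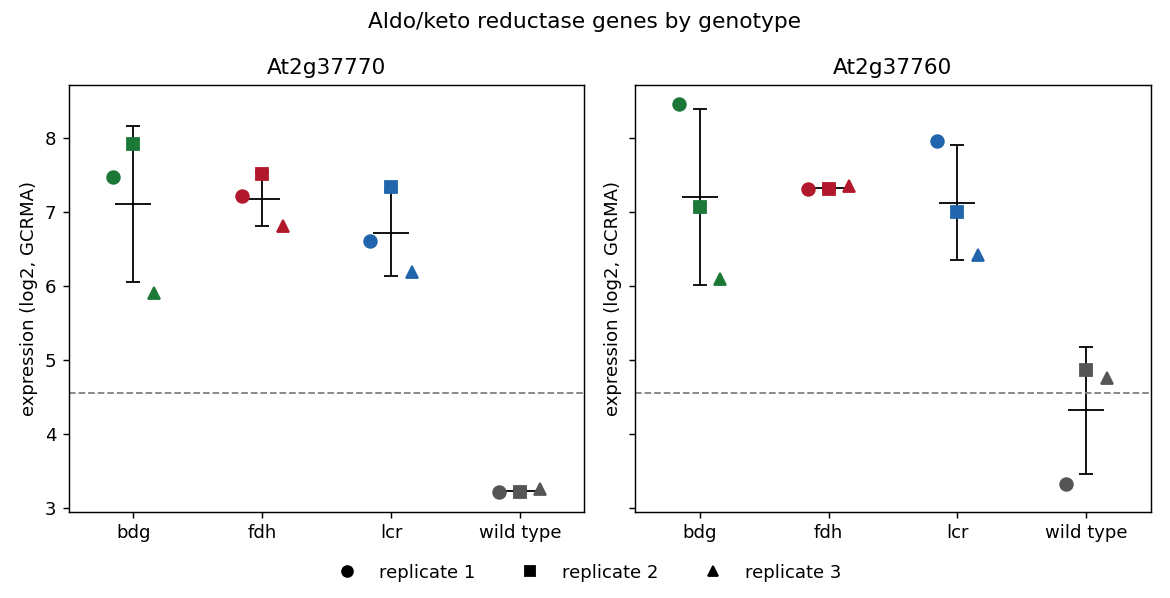
Log2 expression (vertical axis) of At2g37770 and At2g37760 on each array by genotype (horizontal axis). Symbols mark the replicate number, horizontal bars the mean and error bars the SD of 3 arrays, and the dashed line is the lowest array median, 4.56; all mutant arrays lie at 5.91 or higher for At2g37770, whereas the wild-type arrays lie between 3.22 and 3.25.

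Of the 41 members taken by symbol, limma called none higher in bdg or fdh, 1 higher in lcr, and none lower. Over all probe sets, the share called higher was 0.0923% in bdg, 1.53% in fdh and 0.339% in lcr. The share called lower was 0.0176%, 0.633% and 0.0615% in the same order. Rank Product called none of the 41 in either direction, against 0.519%, 1.66% and 1.03% of all probe sets called higher and 0.0352%, 0.198% and 0.114% called lower in bdg, fdh and lcr.

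At an unadjusted p under 0.05 in the limma fit, bdg had 3 of the 41 higher and 1 lower, fdh 5 higher and 3 lower, and lcr 5 higher and 2 lower. Over all probe sets 2.37%, 7.90% and 4.70% were higher and 1.86%, 7.01% and 3.21% lower at that level. The higher members were BGLU25, ALDH3F1 and ALDH7B4 in all 3 mutants, with BGLU42 and ALDH10A9 added in fdh and lcr. The lower ones were GSTU26 in all 3 mutants, GSTU18 in fdh and lcr, and GSTU23 in fdh, which lay under the lowest array median on every array. The comparisons share their wild-type arrays, so a gene's return in several mutants is partly the same measurement.

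Median log2 changes of the aldo/keto reductases were 3.38 in bdg, 3.48 in fdh and 3.15 in lcr. Both of these genes entered by name after the study reported them as upregulated on these arrays. Their medians do not stand for other aldo/keto reductases, and the contrast with the families below is not independent of that choice. The medians of the families taken by symbol were -0.01 in bdg, -0.01 in fdh and 0.00 in lcr for GSTU, -0.19, 0.02 and -0.09 for the 2 GSTF genes, 0.02, 0.00 and 0.04 for BGLU, and 0.08, 0.20 and 0.05 for ALDH, beside -0.01, -0.01 and 0.00 for all probe sets. Of the 43 members, 20 lay under the lowest array median on all 12 arrays, and their changes ran from -0.29 to 0.28 in bdg, from -0.36 to 0.02 in fdh and from -0.16 to 0.41 in lcr. These 20 were mostly BGLU and GSTU genes, among them BGLU28, known as a gene of sulfur starvation, and GSTF13. A further 18 members lay above the lowest array median on all 12 arrays. Among these 18, the 95% interval of the change stayed inside 2-fold either way for 12 members in bdg, 10 in fdh and 10 in lcr.

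**Figure D2:**
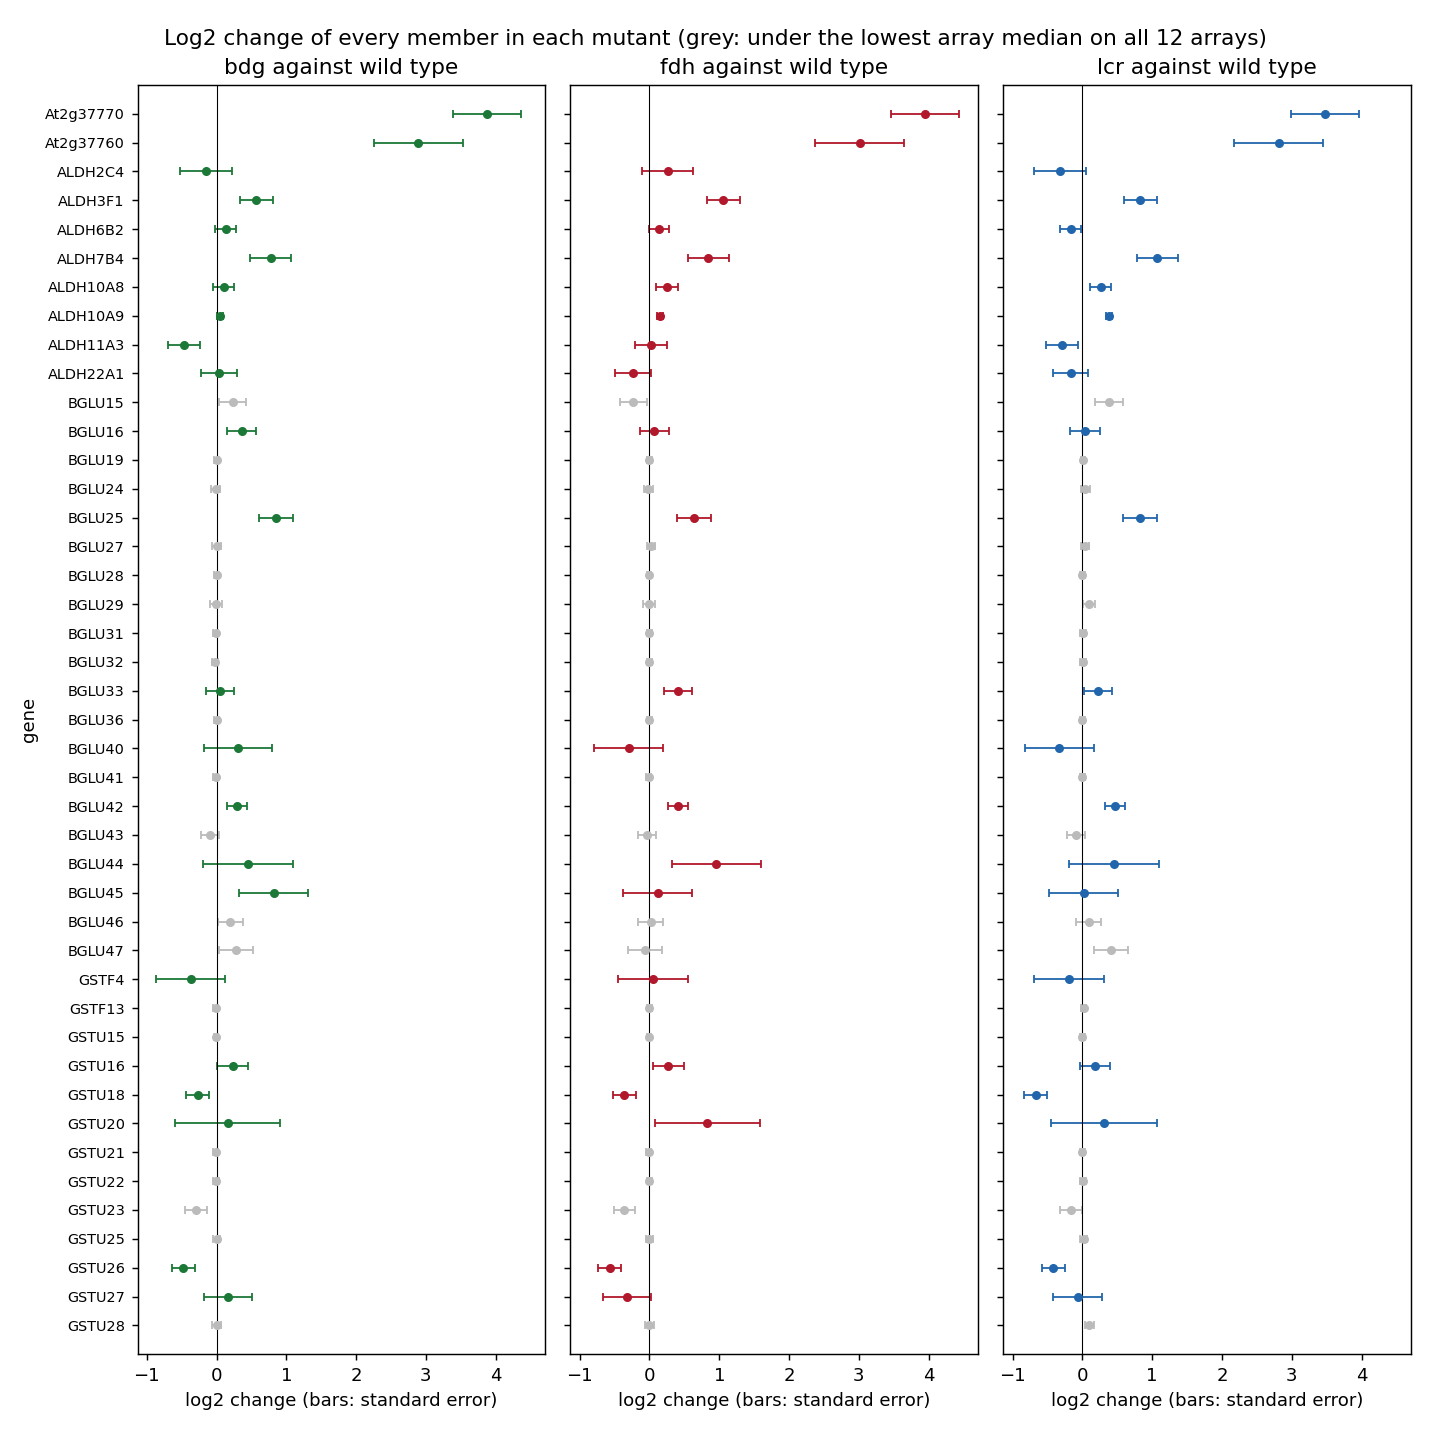
Log2 change of all 43 members (rows) against wild type in bdg, fdh and lcr; points are limma estimates and bars standard errors. The 2 aldo/keto reductase genes at the top lie between 2.81 and 3.95, every other member between -0.67 and 1.07, and the grey members lay under the lowest array median on all 12 arrays.

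Among the ALDH members, ALDH10A9 was the only one past limma. It belongs to the aminoaldehyde dehydrogenases, which act on products of polyamine breakdown. It measured 8.57, 8.56 and 8.40 in bdg, 8.61, 8.60 and 8.64 in fdh, and 8.84, 8.85 and 8.83 in lcr, against 8.48, 8.43 and 8.47 in wild type. The lcr arrays lay above all the others, the fdh arrays lay above wild type, and bdg overlapped wild type.

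The change of ALDH10A9 in lcr was 0.38 (1.30-fold, standard error 0.0469, adjusted p = 0.0201). It was 0.15 in fdh (adjusted p = 0.147) and 0.05 in bdg (adjusted p = 1). The call rests on a narrow spread, an SD of 0.01 in lcr and 0.02 in wild type, and it held in 7 of 14 alternatives. It ended with the filter on low values (adjusted p = 0.385), a variance trend (0.353), only the groups compared (0.127), the second quantile normalization (0.0899), without the 3 arrays of large actin difference (0.126), and without lcr replicate 1 (0.0742) or lcr replicate 2 (0.076). The direct comparisons gave -0.23 for fdh against lcr (adjusted p = 0.146) and 0.33 for lcr against bdg (adjusted p = 0.499), and neither passed.

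ALDH3F1 and ALDH7B4 had the largest changes among the ALDH genes. ALDH3F1, of a class that oxidizes aliphatic aldehydes, measured 9.45, 9.85 and 10.17 in bdg, 10.40, 10.12 and 10.42 in fdh, and 10.00, 9.90 and 10.36 in lcr, against 9.14, 8.93 and 9.69 in wild type. The fdh and lcr arrays did not overlap wild type and the bdg arrays did. The change was 0.57 in bdg (adjusted p = 1), 1.06 in fdh (adjusted p = 0.06) and 0.83 in lcr (adjusted p = 0.289), with a standard error of 0.237.

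Replicate 3 was the highest ALDH3F1 array in all 4 genotypes. With the replicate number as a block, ALDH3F1 passed limma in fdh at the same change of 1.06 (adjusted p = 0.0198), and members past limma in fdh numbered 3, with BGLU44 and At2g37770, against 1 without the block. Leaving out wild type replicate 3 had the same effect on ALDH3F1 in fdh (1.28, adjusted p = 0.031). ALDH3F1 passed limma in fdh in 3 of 14 alternatives, with an adjusted p of up to 0.225 in the others.

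ALDH7B4, the plant antiquitin and a known gene of drought and salt stress, measured 9.67, 9.53 and 9.12 in bdg, 9.45, 9.30 and 9.75 in fdh, and 9.84, 9.73 and 9.62 in lcr, against 8.03, 8.61 and 9.34 in wild type. Wild-type replicates spread over more than 1 log2 unit, and their highest array reached into the range of bdg and fdh but stayed under lcr. The change was 0.78 in bdg (adjusted p = 0.977), 0.84 in fdh (0.207) and 1.07 in lcr (0.265), with a standard error of 0.294. In fdh it passed limma in 1 of 14 alternatives, without wild type replicate 3 (1.18, adjusted p = 0.0399). The adjusted p was up to 0.476 in the others.

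The other ALDH genes moved little. ALDH11A3, the cytosolic non-phosphorylating glyceraldehyde phosphate dehydrogenase, had a wild-type mean of 11.31 and the lowest change of the family in bdg, -0.47 (standard error 0.231, adjusted p = 1). ALDH2C4, which makes ferulic and sinapic acids, had the lowest change in lcr, -0.32 (standard error 0.369, adjusted p = 1), and ALDH22A1 the lowest in fdh, -0.24 (standard error 0.257, adjusted p = 0.865). ALDH6B2, of valine breakdown, and ALDH10A8, the second aminoaldehyde dehydrogenase, changed by -0.17 to 0.26 in the 3 mutants and passed in none.

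**Figure D3:**
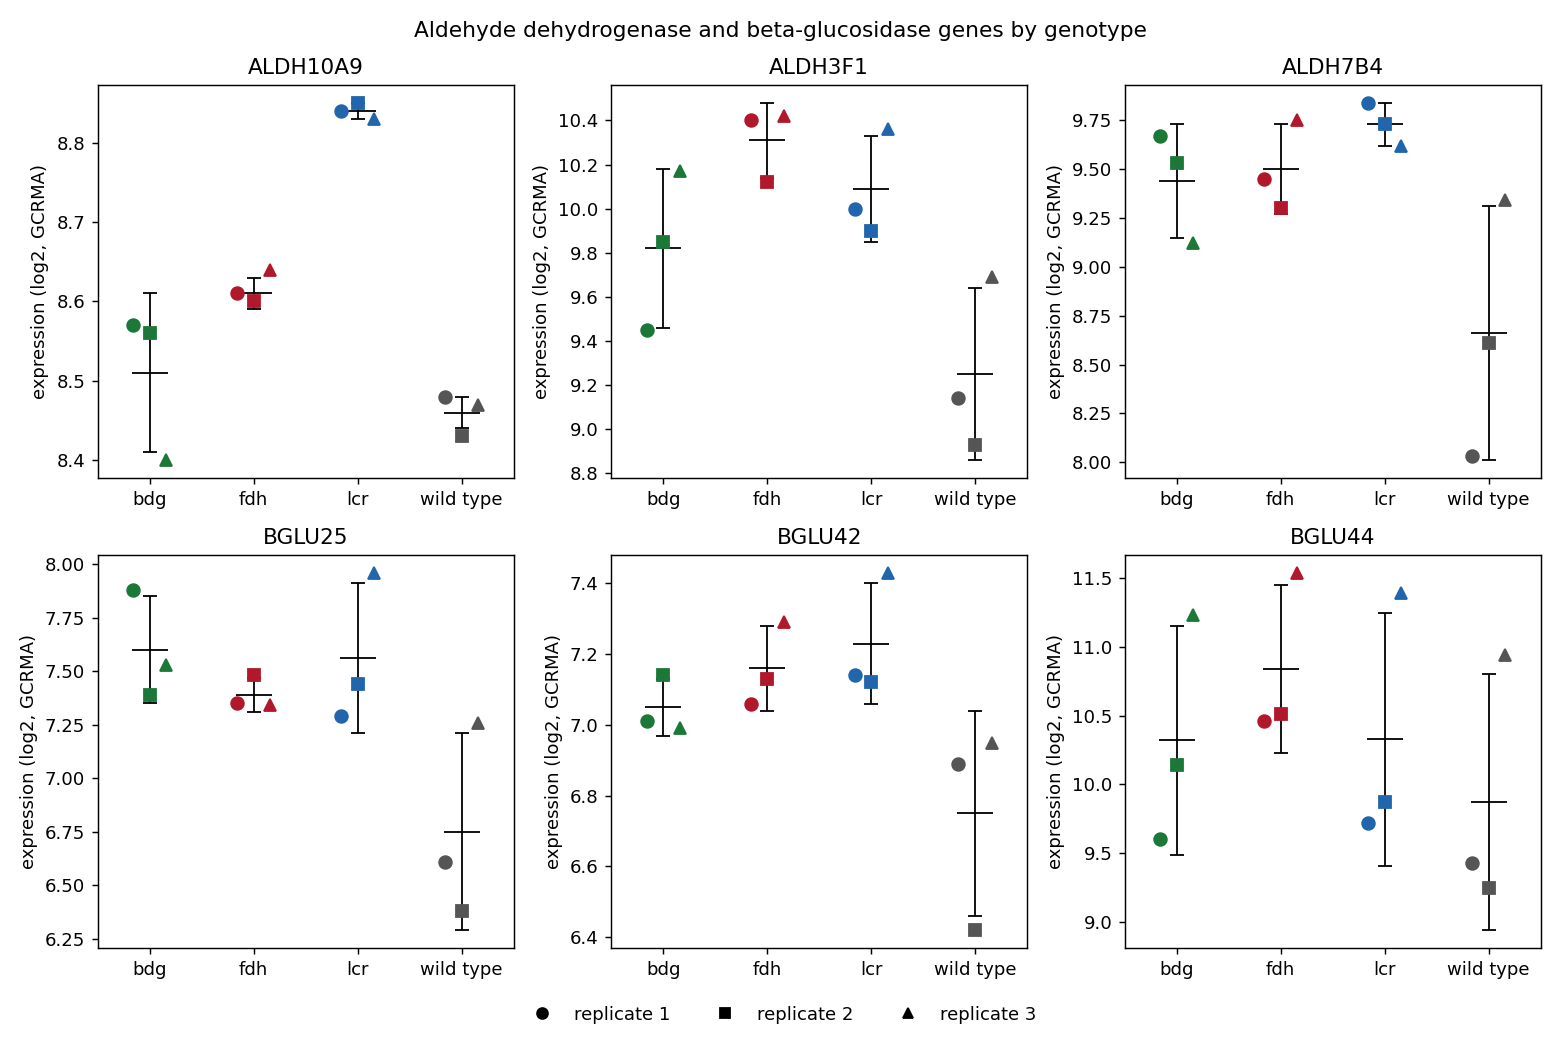
Log2 expression (vertical axes, each with its own range) of 3 ALDH and 3 BGLU genes on each array by genotype (horizontal axes). Symbols mark the replicate number, horizontal bars the mean and error bars the SD of 3 arrays; for ALDH10A9 the 3 lcr arrays lie between 8.83 and 8.85, above all others, and for BGLU44 replicate 3 is the highest array in every genotype.

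Among the BGLU members, none passed limma or Rank Product in any mutant. BGLU25 had the highest change of the family in bdg and in lcr. It measured 7.88, 7.39 and 7.53 in bdg, 7.35, 7.48 and 7.34 in fdh, and 7.29, 7.44 and 7.96 in lcr, against 6.61, 6.38 and 7.26 in wild type. All 9 mutant arrays lay above the 3 wild-type arrays, by as little as 0.03. The change was 0.85 in bdg (1.80-fold, adjusted p = 0.621), 0.64 in fdh (adjusted p = 0.249) and 0.82 in lcr (adjusted p = 0.335), with a standard error of 0.245.

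BGLU42, chosen here after its values were seen, was the only other member taken by symbol whose arrays lay above wild type in all 3 mutants. It releases the coumarin scopoletin from its glucoside and is known from root responses to beneficial bacteria and to low iron. It measured 7.01, 7.14 and 6.99 in bdg, 7.06, 7.13 and 7.29 in fdh, and 7.14, 7.12 and 7.43 in lcr, against 6.89, 6.42 and 6.95 in wild type. Its changes were 0.29, 0.41 and 0.47 in bdg, fdh and lcr (standard error 0.145, adjusted p = 1, 0.217 and 0.35).

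Counts of members whose arrays did not overlap wild type, which are a description and no test, can be set beside all probe sets. Of the 41 members, 3 lay above wild type in bdg (2.89% of all probe sets), 5 in fdh (8.34%) and 6 in lcr (5.36%). Those below wild type numbered 0 in bdg (2.29%), 1 in fdh (8.55%) and 1 in lcr (3.59%). Beside BGLU25, BGLU42, the ALDH genes above, GSTU26 and GSTU18, these were BGLU16 above wild type in bdg and BGLU33 in fdh and lcr. BGLU16 changed by 0.36 in bdg (adjusted p = 1), and BGLU33 by 0.41 in fdh (adjusted p = 0.395) and 0.22 in lcr (adjusted p = 0.992).

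BGLU44, with a wild-type mean of 9.87, had the highest change of the family in fdh. It measured 9.60, 10.14 and 11.23 in bdg, 10.46, 10.51 and 11.54 in fdh, and 9.72, 9.87 and 11.39 in lcr, against 9.43, 9.25 and 10.94 in wild type. Replicate 3 stood at least 1 log2 unit above the other arrays of its genotype in all 4 genotypes, and the genotypes overlapped. The change in fdh was 0.96 (standard error 0.644, adjusted p = 0.616), and with the replicate number as a block it kept its size and passed limma (adjusted p = 0.0297). Over 14 alternatives the change in fdh ran from 0.61 to 1.5 and passed in 1, with a limma adjusted p of up to 0.959. In bdg and lcr it was 0.45 each (adjusted p = 1 for both), and without bdg replicate 3 or lcr replicate 3 it was -0.01 and -0.08. Its neighbour in the genome, BGLU43, lay under the lowest array median on all 12 arrays and had the lowest change of the family in bdg, -0.09 (adjusted p = 1).

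BGLU45 and BGLU46, neighbours on chromosome 1 that act on glucosides of lignin precursors, were low. BGLU45 measured 5.10, 3.09 and 2.80 in bdg, 2.83, 2.84 and 3.23 in fdh, and 2.85, 2.91 and 2.83 in lcr, against 2.77, 2.92 and 2.85 in wild type. Only bdg replicate 1, 1 of the arrays with a large actin difference, lay above the lowest array median, and the change in bdg was 0.82 (standard error 0.494, adjusted p = 1). BGLU46 stayed under the lowest array median, with its highest value of 3.59 on the same array.

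Among the GSTU and GSTF members, none passed limma or Rank Product in any mutant. The lowest change in each mutant belonged to GSTU26 or GSTU18. GSTU18, with a wild-type mean of 9.25, measured 9.23, 8.95 and 8.77 in bdg, 8.80, 9.04 and 8.82 in fdh, and 8.67, 8.43 and 8.66 in lcr, against 9.19, 9.56 and 9.0 in wild type. The lcr arrays lay below those of every other genotype, and the bdg and fdh arrays overlapped wild type. Over all probe sets, fdh arrays lay above lcr for 5.39% and lcr arrays below bdg for 2.12%. The direct comparisons of GSTU18 gave 0.30 for fdh against lcr (limma adjusted p = 0.787) and -0.40 for lcr against bdg, and neither passed. GSTU18 changed by -0.67 in lcr (standard error 0.161, adjusted p = 0.184), -0.36 in fdh (adjusted p = 0.334) and -0.27 in bdg (adjusted p = 1).

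GSTU26 measured 4.47, 4.65 and 4.49 in bdg, 4.34, 4.49 and 4.52 in fdh, and 4.41, 4.68 and 4.71 in lcr, against 5.11, 4.62 and 5.33 in wild type. Wild type replicates 1 and 3 lay above all mutant arrays, and wild type replicate 2, an array of large actin difference, lay among them. All 3 fdh arrays, bdg replicates 1 and 3 and lcr replicate 1 lay under the lowest array median. The change was -0.48 in bdg (adjusted p = 0.91), -0.57 in fdh (adjusted p = 0.131) and -0.42 in lcr (adjusted p = 0.537), with a standard error of 0.165. Without wild type replicate 2 it was -0.77 in fdh and passed limma (adjusted p = 0.0245), and with the actin difference of each array as a covariate it was -0.66 (adjusted p = 0.0438). GSTU26 passed limma in fdh in 4 of the 13 alternatives that held it, with an adjusted p of up to 0.419 in the others. Its genomic neighbour GSTU25 lay under the lowest array median on all 12 arrays.

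GSTU16 had the highest change of its class in bdg, 0.23 (standard error 0.221, adjusted p = 1). In the phi class, GSTF4 ranged from 3.29 to 5.25 over the 12 arrays, and its changes of -0.37 in bdg, 0.05 in fdh and -0.19 in lcr each stood under their standard error of 0.497. GSTF13 lay between 2.25 and 2.36 on all 12 arrays, under every array median, and changed by -0.01, 0.00 and 0.02 in bdg, fdh and lcr.

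**Figure D4:**
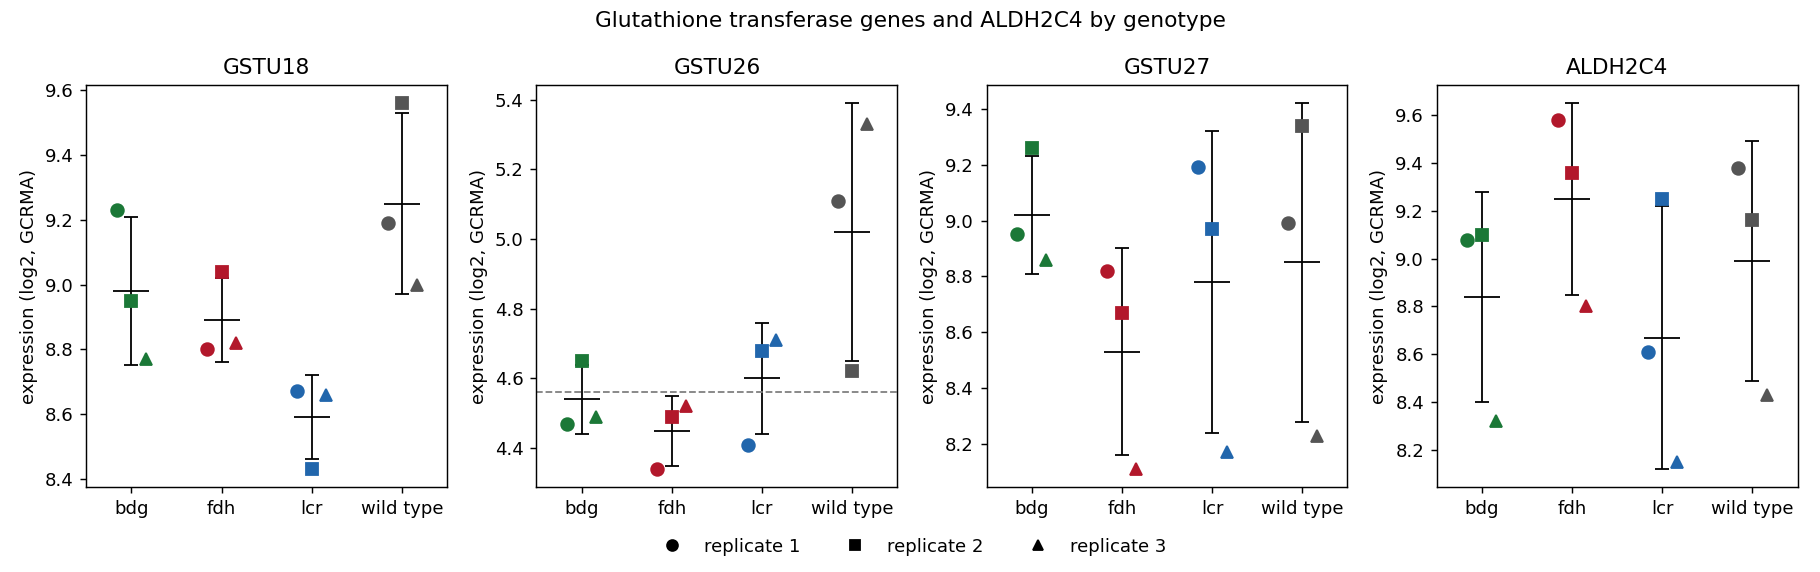
Log2 expression (vertical axes, each with its own range) of GSTU18, GSTU26, GSTU27 and ALDH2C4 on each array by genotype (horizontal axes). Symbols mark the replicate number, horizontal bars the mean and error bars the SD of 3 arrays, and the dashed line is the lowest array median; the GSTU18 arrays of lcr lie between 8.43 and 8.67, below all others, and for GSTU27 and ALDH2C4 replicate 3 is the lowest array in every genotype.

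Of the 18 members above the lowest array median on all arrays, GSTU20, BGLU44 and ALDH3F1 had replicate 3 as the highest array in all 4 genotypes, and GSTU27, BGLU40 and ALDH2C4 had it as the lowest. Over all probe sets above that median on all arrays, 13.5% had replicate 3 as the highest and 9.49% as the lowest, so the pattern is not particular to these members. GSTU27 measured 8.86, 8.11, 8.17 and 8.23 on replicate 3 of bdg, fdh, lcr and wild type, and between 8.67 and 9.34 on the other arrays. Its largest change was -0.32, in fdh (standard error 0.345, adjusted p = 0.874). The labels state that each of 3 harvest rounds held 1 sample of every genotype, but not that the replicate number marks the round.

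GSTU20, known to interact with a jasmonate-conjugating enzyme, had the widest wild-type spread of the glutathione transferases. It measured 8.05, 9.84 and 10.00 in bdg, 9.80, 9.80 and 10.30 in fdh, and 8.78, 9.42 and 10.13 in lcr, against 9.39, 7.57 and 10.44 in wild type. The 3 arrays of large actin difference, bdg replicate 1, lcr replicate 1 and wild type replicate 2, were its 3 lowest. Its change of 0.83 in fdh was the highest of the class (standard error 0.755, adjusted p = 0.782), and it was 0.05 without wild type replicate 2. In lcr the change was 0.31, or -0.47 without that array. Its genomic neighbours GSTU21, GSTU22 and GSTU23 lay under the lowest array median on all 12 arrays.

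BGLU40 moved the other way on the same arrays. It measured 10.80, 10.04 and 9.56 in bdg, 9.72, 9.54 and 9.32 in fdh, and 10.27, 9.21 and 8.99 in lcr, against 9.53, 10.77 and 9.16 in wild type. Its 3 highest arrays were those of large actin difference. Its change was the lowest of the family in fdh, -0.30, and in lcr, -0.33 (standard error 0.491, adjusted p = 1 for both), and without wild type replicate 2 these were 0.18 and 0.14. The part of RNA quality in these values was not tested beyond such fits. Of the 18 members above the lowest array median everywhere, 2, BGLU40 and GSTU18, had these 3 arrays as the highest within the genotype. Another 4, GSTU20, BGLU44, ALDH11A3 and ALDH22A1, had them as the lowest. Over all probe sets above that median everywhere, the shares were 15.5% highest and 22.0% lowest.

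**Figure D5:**
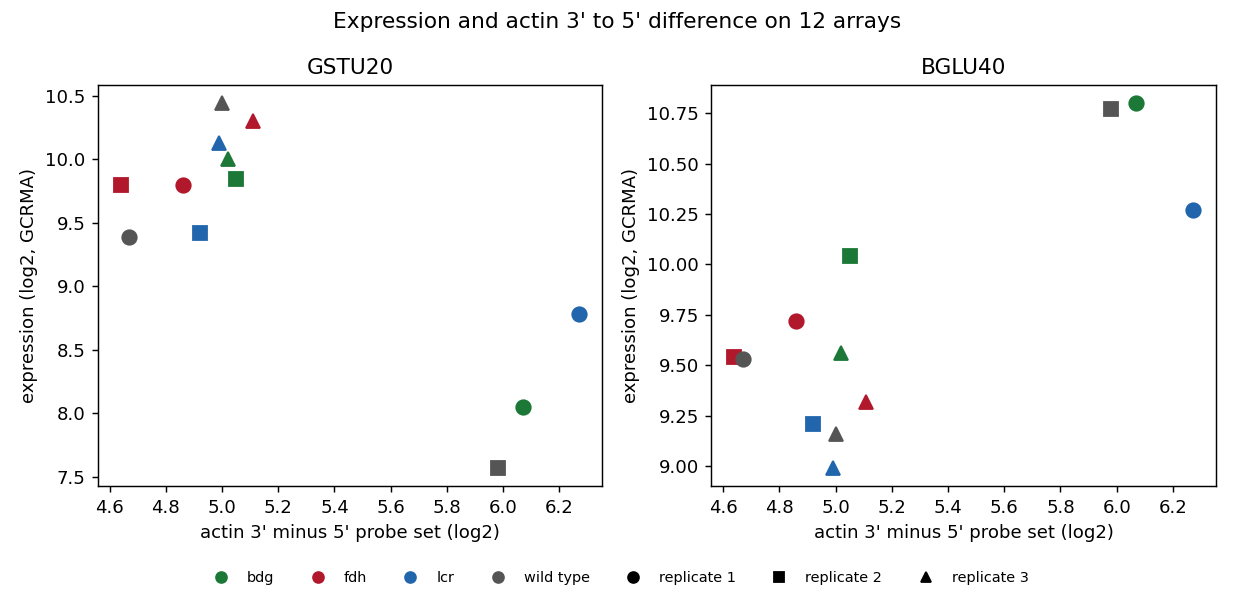
Log2 expression (vertical axes) of GSTU20 and BGLU40 on 12 arrays against the difference between the 3′ and 5′ actin probe sets (horizontal axes, log2). Colours mark the genotype and symbols the replicate number; the 3 arrays with differences of 5.98 to 6.27 are the lowest of all for GSTU20 and the highest of all for BGLU40.

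Between mutants, limma called none of the 43 members in either direction, against 0.501% of all probe sets higher and 0.259% lower in fdh against bdg, 0.0528% and 0.0352% in fdh against lcr, and 0.0044% and 0% in lcr against bdg. At an unadjusted p under 0.05, 1 member was lower in fdh than in bdg, 2 were lower in fdh than in lcr, and 1 was higher and 1 lower in lcr than in bdg. Over all probe sets these shares were 6.77% higher and 6.12% lower in fdh against bdg, 3.49% and 4.36% in fdh against lcr, and 1.96% and 1.14% in lcr against bdg. The members were BGLU15, a flavonol glucosidase (-0.47 against bdg and -0.61 against lcr), under the lowest array median on every array, ALDH10A9 (-0.23 in fdh against lcr and 0.33 in lcr against bdg) and GSTU18 (-0.40 in lcr against bdg).

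Other genes of these pathways were mostly without a named probe set. Among 8 genes of glutathione synthesis, recycling and peroxidases, 2 could be measured, the glutathione reductases GR1 and GR2, and neither passed limma. The lambda class transferase GSTL3 and the alkenal reductase AER, which removes lipid-derived carbonyls, did not pass either, with changes of -0.24, 0.01 and -0.28 for GSTL3 and 0.37, 0.24 and 0.34 for AER in bdg, fdh and lcr. Of 7 genes listed as myrosinase partners or genes of the ER body, a store of beta-glucosidase in the Brassicaceae, NAI1 and NAI2 were measured and lay under the lowest array median on all 12 arrays, as did the ER body glucosidase BGLU23.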

How the data were processed

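RNA of 12 samples was hybridized to ATH1 arrays, and the authors deposited 1 log2 expression value per probe set and array, with no replicates pooled. GCRMA, credited in the submitters' processing notes (version not given in the sources used), subtracts a background predicted from probe sequences, makes the arrays comparable and combines the probes of a set. It draws low values towards a floor, which narrows their spread. After removal of 64 probe sets of the array maker's controls, 22746 were tested, without a filter on low values.

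Groups were compared with limma 3.58.1 in R 4.3.3, all 12 arrays in 1 model, with Benjamini-Hochberg adjustment over all probe sets and an adjusted p under 0.05. Rank Product was written anew (9 ratios of arrays, 100 permutations, pfp under 0.05). Both were run on simulated data with independent noise on each array. These data held no shared replicate or RNA quality pattern, so the runs do not show how the tests behave under one. There is no read depth on arrays; 3 per genotype set the precision.

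The platform annotation gives 1 gene for 13513 probe sets and several for 503, and a probe set shared by BGLU21 and BGLU22 was therefore no member. Neighbouring genes were taken from RefSeq. The members, gene lists and tests were chosen with earlier results of these data known. Genes named were At2g37760 and At2g37770, every member past limma or Rank Product, and in each family the highest and lowest change in each mutant and the brightest probe set in wild type, which does not rank transcript levels. BGLU15, BGLU16, BGLU28, BGLU33, BGLU42, BGLU45, BGLU46, GSTU23, GSTU27, ALDH6B2 and ALDH10A8 fall outside this rule and were chosen after their values were seen. Lists of glutathione conjugate transport, other aldehyde and alcohol enzymes, other aldo/keto reductases, TGA factors and markers of epidermis, flower and senescence had no gene with a probe set named here. The same holds for BDG, FDH and LCR, so the labels were not checked against the mutated genes.

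Alternatives were only the groups compared, a second quantile normalization, a filter (log2 above 5 on at least 3 arrays), the replicate number as a block, a variance trend, each array left out, wild type replicate 2 and bdg replicate 1 left out because the study names their 3′ to 5′ ratios as disturbed, a pfp under 0.01, and, added after seeing the data, the actin difference as a covariate and the 3 arrays with the largest actin difference left out. Same-numbered arrays of fdh and wild type deviated together from their genotype means (r = 0.285, 0.142 and 0.475 for replicates 1, 2 and 3), so the blocked value is given beside those results for fdh whose call it changes. However, fdh replicate 2 correlated more with a wild-type array of another number. In bdg and lcr the shared deviation with wild type held for replicate 3 but not for every number. The r with wild type for replicates 1, 2 and 3 was -0.222, -0.356 and 0.725 in bdg, and 0.0272, 0.0214 and 0.675 in lcr. The main fit holds no term for the replicate number.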

Additional observations from a re-analysis of the deposited data

How the results depend on the processing

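Members past limma numbered 1 in bdg, 1 in fdh and 2 in lcr. With only the groups compared in the fit they were 0 in bdg and 0 in lcr. With the second quantile normalization lcr had 1, and with a variance trend fdh had 2 and lcr 1. The filter on low values gave 3 in fdh. The replicate number as a block gave 3 in fdh and changed no count in bdg or lcr. Without both arrays of disturbed ratios bdg had 0, fdh 2 and lcr 1, and without the 3 arrays of largest actin difference 0, 2 and 0. With the actin difference as a covariate fdh had 3 and lcr 3. With the filter, the 2 in lcr were At2g37770 and At2g37760 in place of ALDH10A9. With 1 array left out at a time, the counts ran from 0 to 1 in bdg, 1 to 3 in fdh and 0 to 2 in lcr, and those of Rank Product from 1 to 2 in each mutant. Between mutants, no alternative called a member.

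Changes of At2g37770, At2g37760, ALDH3F1, ALDH7B4, ALDH10A9, BGLU25, GSTU18 and GSTU26 kept their sign in every mutant and alternative. Of the changes with no call, several turned sign or shrank, and their causes were not tested. GSTU20 in fdh kept its sign but was 0.05 without wild type replicate 2 and without either set of arrays. GSTU16 in lcr was 0.00 without the 3 arrays of largest actin difference. GSTU20 in lcr was -0.47 without the arrays of disturbed ratios and -0.14 without the 3 arrays of largest actin difference. In fdh, GSTF4 was -0.02 with the quantile normalization, -0.12 with the covariate and -0.28 without either set of arrays. BGLU40 was 0.03 in fdh with the covariate, 0.18 without either set, and 0.14 in lcr without the disturbed arrays. ALDH11A3 in fdh was -0.06 with the quantile normalization, -0.14 with the covariate and -0.17 without either set, and ALDH22A1 in bdg was -0.17 without either set. With 1 array left out at a time, GSTU20 ran from -0.62 to 0.82 in bdg and from -0.47 to 0.96 in lcr. GSTF4 ran from -0.69 to 0.04 in bdg, from -0.32 to 0.45 in fdh and from -0.52 to 0.11 in lcr. GSTF13 ran from -0.02 to 0.01 in bdg and from -0.01 to 0.01 in fdh. BGLU40 ran from -0.02 to 0.79 in bdg, from -0.63 to 0.18 in fdh and from -0.72 to 0.14 in lcr. BGLU43 ran from -0.20 to 0.05 in bdg and in lcr and from -0.14 to 0.11 in fdh, and BGLU44 from -0.01 to 0.98 in bdg and from -0.08 to 0.99 in lcr. ALDH2C4 ran from -0.43 to 0.10 in bdg and from -0.02 to 0.48 in fdh. ALDH11A3 ran from -0.17 to 0.18 in fdh, and ALDH22A1 from -0.23 to 0.26 in bdg and from -0.43 to 0.07 in lcr.

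Fits with arrays left out hold fewer arrays, and how far this alone changed a call was not tested. With 3 arrays a genotype, intervals of many members reach past 2-fold, and for the 20 members under the lowest array median on every array no level was shown in any genotype.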
